A study of Mus musculus with 43 samples.

Results

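The collagen genes were taken as every gene whose symbol has the form Col, a number, a and a number: 44 of the 38964 genes that the 5 deposited tables share. Of these, 40 reached an FPKM (fragments per kilobase of transcript, scaled to sequencing depth) of at least 1 in at least 2 of the 43 libraries, and Col4a3, Col4a4, Col6a4 and Col19a1 did not. By the structure of their proteins the 40 fall into 11 fibrillar, 4 basement membrane, 8 FACIT (fibril-associated, with interrupted triple helices), 5 beaded filament, 3 network, 4 transmembrane and 2 multiplexin collagens, and 3 others.

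Collagens are secreted or membrane proteins in which a trio of chains wind into a triple helix, and they make up most of the matrix around fibroblasts. Fibrillar collagens form the rope-like fibrils, FACIT collagens bind to fibril surfaces, and basement membrane collagens build the sheet under epithelia and around vessels. Chains are hydroxylated and folded in the endoplasmic reticulum, exported, trimmed of their propeptides and cross-linked, and embryonic fibroblasts, as matrix-producing cells, make them in large amounts. Conversion to pluripotent cells ends with cells that make little fibrillar matrix.

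Poly(A) RNA of mouse embryonic fibroblasts (MEFs) that carry a doxycycline-inducible cassette of Oct4, Klf4, Sox2 and c-Myc was sequenced along 4 reprogramming courses, each stage as 1 library. Mbd3f/- cells (11 libraries: MEF, days 1 to 8, an iPSC line, an ES line) and Gatad2a-/- cells (10 libraries, the same without ES) lack or are depleted of a subunit of the NuRD repressor complex and are called the depleted systems here. WT-1 (7 libraries: MEF, days 2, 4, 6 and 8, iPSC, ES) and WT-2 (6 libraries, the same without ES; isogenic to Gatad2a-/-) are wild type for both. A table of 9 libraries with altered Myc came from Mbd3f/- cells and from Mbd3f/- OSK2nd cells, secondary fibroblasts of Mbd3flox/- origin with an inducible cassette lacking Myc. Induction was in serum and LIF at low oxygen, and cells then moved to a medium with serum replacement, LIF and the inhibitor pair known as 2i, which blocks MEK and GSK3. Cultures of days 3 to 8, iPSCs and ES cells were plated on irradiated human foreskin fibroblasts, so time, medium and feeder cells change together, and the deposited text differs on when 2i was added. Nothing in the labels says that libraries came from separate cultures, so p-values measure only the spread between these samples, which may be technical. In bulk RNA, fewer cells of a type and less RNA per cell cannot be told apart.

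The summed FPKM of a library ran from 573565 to 917084 in the Mbd3f/-, WT-1 and WT-2 tables and from 1493838 to 10044225 in the Gatad2a-/- table, where 1 small noncoding gene, Gm24270, took up to 2510000. Sequencing depth is unknown. Gene-level FPKM does not check the genotypes. Gatad2a was at 10.2 in Gatad2a-/- MEFs and 10.5 in WT-2 MEFs, and at 13.4 and 38.5 in their iPSCs, and the labels do not say which part is deleted. Mbd3 was at 37.5 FPKM in Mbd3f/- MEFs and 96.5 on day 1, and at 79.4 and 53.0 in WT-1 and WT-2 MEFs. Mbd3f/- cells keep a floxed allele. MEFs of the 4 systems carried fibroblast markers (10 genes, summed FPKM from 916 to 1382). Summed pluripotency markers (7 genes, of which Pou5f1 and Sox2 are also cassette genes) were at 5.41 in WT-1 MEFs and 4.82 on day 2, and in WT-2 they stayed between 0.504 and 2.82 from MEF to day 8. Pluripotency markers were thus not raised in the WT-1 library of day 2 and were low in WT-2 from MEF to day 8. Their levels on later days of WT-1 and in the depleted courses are not given here. The comparisons with WT on days 2 to 8 below include such libraries with low markers. Some comparisons with WT are also given with a system left out. Leaving out a system changed other counts as well, for which this is not given.

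**Figure D1:**
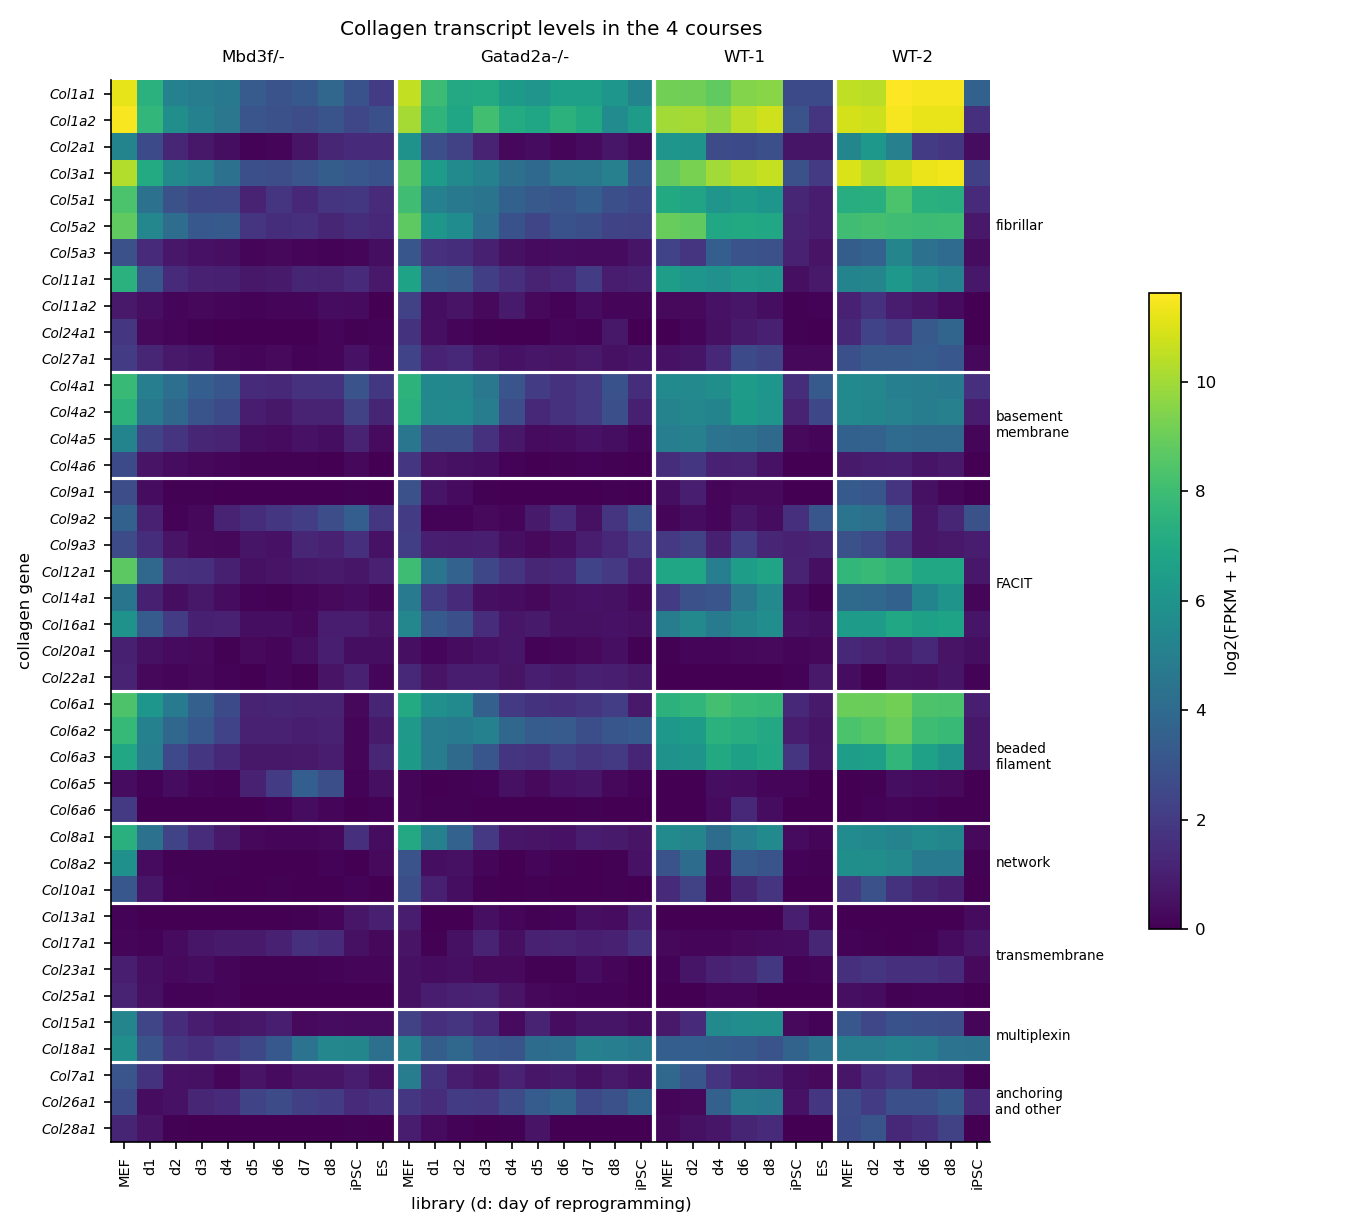
Level of each of the 40 collagen genes (rows, grouped by class) in each of the 34 course libraries (columns, grouped by system), as log2(FPKM + 1). Dark is low. Most rows that are light in MEFs are darker from day 2 in Mbd3f/- and, less so, in Gatad2a-/-, and still light on day 8 in WT-1 and WT-2. Col18a1 is lighter again in iPSCs of the depleted systems.

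Fibrillar collagens led the family in fibroblasts. They made up 79.0%, 75.6%, 81.3% and 79.2% of the summed collagen FPKM in Mbd3f/-, Gatad2a-/-, WT-1 and WT-2 MEFs. By day 1 the summed collagen FPKM had gone from 9498 to 847 in Mbd3f/- and from 5027 to 948 in Gatad2a-/-, while on day 8 it was 5309 in WT-1 (MEF 3488) and 9467 in WT-2 (MEF 7377). In iPSCs of the 4 systems 31 of 39 tested members were lower than in MEFs and 0 were higher (limma, adjusted p under 0.05), against 23.9% of all genes lower, and 29.0% higher. Their median change was -2.56 in log2(FPKM + 1), against 0.14 over all genes tested. A member that passed the filter on low values through its MEF level had to be lower later, so such counts describe the family and support nothing beyond it.

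Loss was timed as the percent of a system's own MEF level that was left, for members at 5 FPKM or more in that system's MEFs. In Mbd3f/- cells 25 of 28 such members were at or below 50% of MEF on day 1 and stayed there through day 8, and 21 were at or below 25%. Gatad2a-/- cells had 22 of 23 at or below 50% from day 1 on, and 15 at or below 25%. The exceptions were Col9a2, Col18a1 and Col26a1 in Mbd3f/- and Col18a1 in Gatad2a-/-, which fell and came back. In WT-1, 4 of 19 members had fallen to 50% or less by day 8 (Col2a1, Col5a2 and Col7a1 from day 4, Col4a5 at day 8). WT-2 had 5 of 27 (Col9a1, Col9a2 and Col9a3 from day 4, Col2a1 and Col8a2 from day 6).

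The classes differed in how much was left on day 1. The median fibrillar member kept 8.30% of its MEF level on day 1 in Mbd3f/- and 16.6% in Gatad2a-/-. FACIT members kept 7.46% and 10.8%, basement membrane members 12.3% and 23.6%, and beaded filament members 20.8% and 38.4%. Among members at 5 FPKM or more in MEFs, FACIT was thus the lowest and beaded filament the highest of these 4 medians in both systems. The order of FACIT did not hold at a limit of 1 FPKM, where its median was 12.8% in Mbd3f/-, above the fibrillar 9.25% and the basement membrane 12.3%, and 12.3% in Gatad2a-/-, below the fibrillar 16.6%. Averaged over the 2 systems they were 9.16% ± 2.39 (SD, n = 2 systems) for FACIT, 12.5% ± 5.88 for fibrillar, 17.9% ± 8.01 for basement membrane and 29.6% ± 12.5 for beaded filament. The spread between systems was larger than the step from FACIT to fibrillar and from fibrillar to basement membrane, and no test was made of these medians.

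The depleted systems also differed from each other in pace. On day 2 the fibrillar median was 2.76% in Mbd3f/- and 10.1% in Gatad2a-/-. Basement membrane collagens paused in Gatad2a-/-, at 23.6%, 24.9%, 13.3% and 3.40% on days 1 to 4, whereas Mbd3f/- gave 12.3%, 7.01%, 3.79% and 2.92%. With 1 library a stage, the difference between these systems has no replicate check. On day 8 the fibrillar median was 82.2% in WT-1 and 128% in WT-2, the basement membrane median 148% and 73.9%, and the FACIT median 136% (2 members) and 34.3% (6 members). In iPSCs the fibrillar median was 0.732%, 2.05%, 0.851% and 0.767% in Mbd3f/-, Gatad2a-/-, WT-1 and WT-2.

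**Figure D2:**
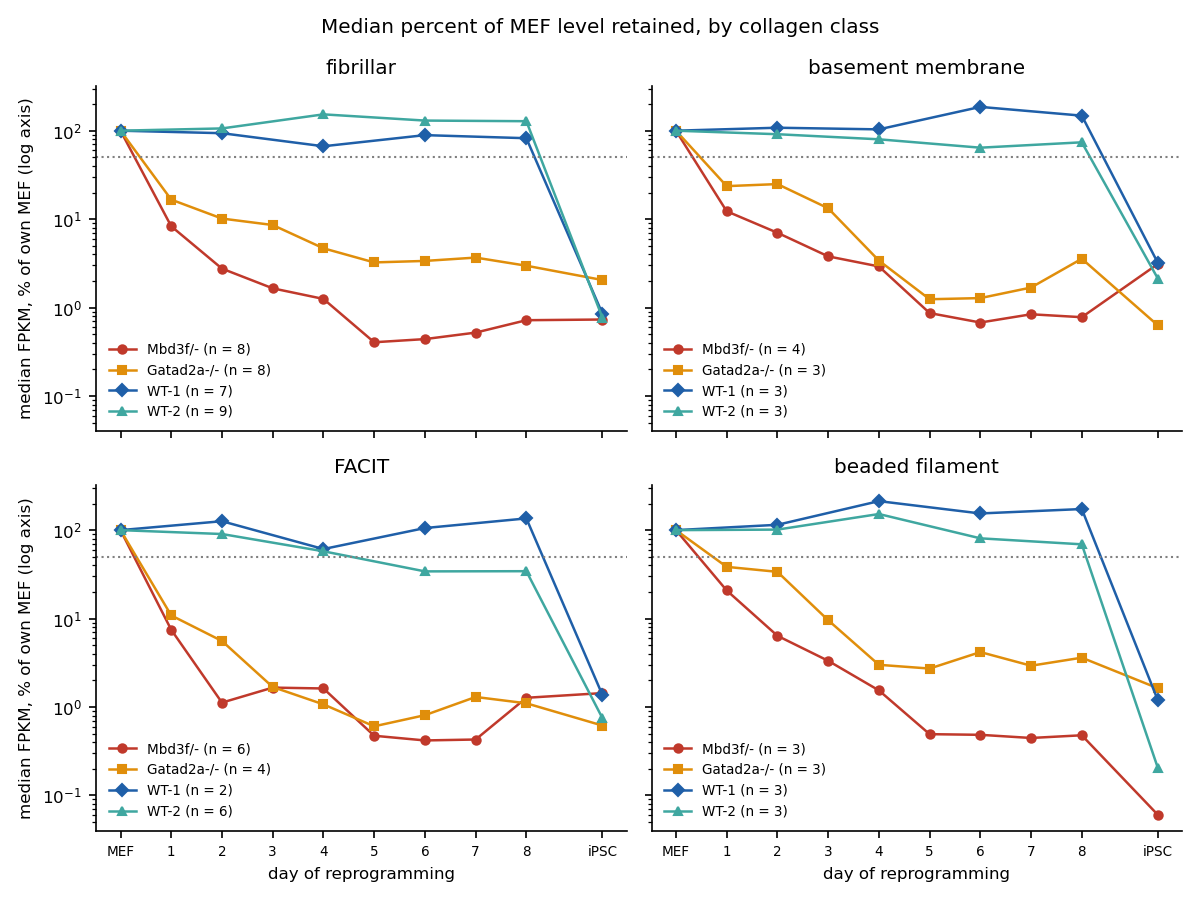
Median percent of the system's own MEF level retained (log axis) by day of reprogramming and in iPSCs, for 4 collagen classes; each line is a system, n is the number of members, and the dotted line marks 50%. The depleted systems fall below the dotted line on day 1 in each class, and the WT medians stay above it through day 8 except FACIT in WT-2.

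Tested day by day over both depleted systems, 34 of the 40 members passed the filter. On days 1 to 8, 26, 29, 29, 30, 29, 29, 28 and 27 of them were lower than in MEFs and 0 were higher (limma, adjusted p under 0.05), against 8.99%, 10.3%, 13.6%, 16.7%, 15.9%, 17.1%, 15.5% and 16.2% of all genes lower. On day 1 the called members were 9 of 10 fibrillar, 4 of 4 basement membrane, 6 of 7 FACIT and 2 of 4 beaded filament collagens, with median changes of -2.94, -2.38, -2.28 and -1.71. Members low in MEFs can fall little in log2(FPKM + 1), which affects these medians. The beaded filament class includes Col6a5, at 0.325 and 0.152 FPKM in Mbd3f/- and Gatad2a-/- MEFs. Without the Mbd3f/- system the numbers called on days 1 to 6 were 2, 6, 14, 17, 16 and 18, and without Gatad2a-/- the day 1 number was 16. Such a fit leaves 1 library a stage and takes its spread to be that of the other systems.

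Type I collagen, the main fibril of bone, skin and tendon, joins chains from Col1a1 and Col1a2. Col1a1 (chr11:94936224-94953042) stood at 2355 FPKM in Mbd3f/- MEFs, 172, 33.4, 29.7, 24.7, 9.24, 6.79, 8.33 and 13.4 on days 1 to 8, 6.68 in iPSCs and 3.23 in ES cells. The Gatad2a-/- course gave 1489 FPKM in MEFs, 247, 131, 139, 79.5, 65.0, 92.6, 94.8 and 68.9 on days 1 to 8 and 36.9 in iPSCs. Every later library of both courses lay below its MEF, and Gatad2a-/- kept more than Mbd3f/- from day 1 on. In WT its day 8 level was above MEF: 559.8 FPKM in MEFs, 556, 447, 702 and 745 on days 2, 4, 6 and 8, 5.20 in iPSCs and 5.19 in ES cells for WT-1, and 1466 FPKM in MEFs, 1354, 3163, 2837 and 2846 on days 2, 4, 6 and 8 and 11.2 in iPSCs for WT-2. The change at day 1 in the depleted systems was -3.18 ± 0.80 in log2(FPKM + 1) (SE, n = 2 systems; limma, adjusted p = 0.015).

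Col1a2 (chr6:4504814-4541544), its partner, went from 2909.8 FPKM in Mbd3f/- MEFs, 208, 51.8, 33.2, 23.7, 7.33, 6.27, 5.77 and 7.02 on days 1 to 8, 4.59 in iPSCs and 6.24 in ES cells. Its Gatad2a-/- levels were 1068 FPKM in MEFs, 195, 117, 274, 143, 113, 178, 134 and 47.2 on days 1 to 8 and 84.3 in iPSCs, with day 3 above day 2, where Col1a1 differed little. WT-1 had 1048 FPKM in MEFs, 1080.2, 866, 1419 and 1764 on days 2, 4, 6 and 8, 6.84 in iPSCs and 2.47 in ES cells, and WT-2 1861 FPKM in MEFs, 1699, 2849, 2423 and 2400.3 on days 2, 4, 6 and 8 and 2.03 in iPSCs. The 2 depleted systems were far apart by day 8 and the day 1 change of -3.12 ± 1.25 did not pass (limma, adjusted p = 0.099).

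Col3a1 (chr1:45311538-45349706) encodes type III collagen of elastic tissues such as skin and vessels. Its course was 1265 FPKM in Mbd3f/- MEFs, 135, 44.3, 34.1, 19.1, 6.24, 5.80, 7.43 and 9.80 on days 1 to 8, 7.82 in iPSCs and 6.56 in ES cells. Gatad2a-/- cells had 362 FPKM in MEFs, 84.4, 44.8, 33.4, 18.7, 14.7, 23.2, 24.0 and 32.1 on days 1 to 8 and 8.12 in iPSCs. In WT-1 it climbed at each sampled day, 453 FPKM in MEFs, 617, 1028, 1348 and 1553 on days 2, 4, 6 and 8, 6.44 in iPSCs and 2.92 in ES cells, and in WT-2 it was at 2003 FPKM in MEFs, 1337, 1892, 2498 and 2651 on days 2, 4, 6 and 8 and 3.65 in iPSCs. Depleted and WT values did not overlap from day 2 to day 8. The WT change at day 8 of 1.09 ± 0.71 did not pass (limma, adjusted p = 0.55), and the fall from day 8 to iPSC did (-8.43 ± 0.71, limma, adjusted p = 3.4e-06).

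The other fibrillar genes with high MEF levels also fell by day 1 in the depleted systems, and varied more in WT. Col5a1 and Col5a2, whose type V product starts fibrils, went from 319 and 439 FPKM in Mbd3f/- MEFs to 19.2 and 40.8 on day 1, and from 266 and 427 to 34.0 and 71.0 in Gatad2a-/-. Col11a1, a minor chain of cartilage fibrils, went from 171 to 7.49 and from 107 to 10.1. By day 8 in WT-1, Col5a1 was at 68.7 FPKM (MEF 133) and Col11a1 at 71.2 (MEF 86.6). In WT-2 they were at 159 (MEF 150) and 35.1 (MEF 36.8). In WT the gene Col5a2 differed between systems: in WT-1 it was at 481, 437, 123, 132 and 125 FPKM from MEF to day 8, and in WT-2 at 267, 290.1, 269, 252 and 255. Col5a3, a further type V chain, was highest on day 4 in both WT systems, at 10.3 FPKM in WT-1 (MEF 4.02) and 38.5 in WT-2 (MEF 9.75), and at 0.0956 and 0.276 on day 8 in Mbd3f/- and Gatad2a-/-.

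RefSeq promoter windows (GRCm38.p6) were found for 32 of the 40 members. The 250 bases before the start are shown for Col3a1, Col5a1 and Col8a1, of the fibrillar and network classes, whose windows hold no annotated exon. Capitals mark the motifs searched on both strands, of which none is part of another. The CCAAT box was searched by the letters of its name. The GC box was searched as GGGCGG. The letters TATAAA stand for the TATA box. For the E-box the letters were CACGTG, which read the same on both strands, and for the octamer ATGCAAAT.
Col3a1 (chr1:45311288-45311537, plus strand): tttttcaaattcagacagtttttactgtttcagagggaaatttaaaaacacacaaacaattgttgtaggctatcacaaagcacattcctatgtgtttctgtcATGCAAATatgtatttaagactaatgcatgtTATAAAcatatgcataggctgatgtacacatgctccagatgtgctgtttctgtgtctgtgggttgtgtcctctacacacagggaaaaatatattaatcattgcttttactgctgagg
Col5a1 (chr2:27886175-27886424, plus strand): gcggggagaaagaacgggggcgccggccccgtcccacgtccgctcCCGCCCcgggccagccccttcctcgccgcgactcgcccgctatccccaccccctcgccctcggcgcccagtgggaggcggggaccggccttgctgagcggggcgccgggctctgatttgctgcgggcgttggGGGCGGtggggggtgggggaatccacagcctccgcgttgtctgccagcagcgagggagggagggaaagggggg
Col8a1 (chr16:57754738-57754987, minus strand): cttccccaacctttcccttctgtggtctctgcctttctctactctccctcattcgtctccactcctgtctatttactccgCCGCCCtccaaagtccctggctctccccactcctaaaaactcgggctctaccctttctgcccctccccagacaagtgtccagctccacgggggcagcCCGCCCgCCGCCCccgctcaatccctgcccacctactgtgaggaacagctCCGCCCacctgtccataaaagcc
Col3a1 has a TATAAA and an ATGCAAAT and a GC content of 35.2%, Col5a1 has 2 GGGCGG and 76.4%, and Col8a1 has 4 GGGCGG and 60.8%. Of the 35 windows of members, 60.0% hold GGGCGG, 34.3% CCAAT, 14.3% TATAAA, 5.71% ATGCAAAT and 0 CACGTG, against 32.7%, 33.9%, 12.4%, 1.60% and 6.02% of the 32851 windows of all genes. A match is a string of letters and not a bound site.

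Col4a1 (chr8:11198423-11312826, minus strand) and Col4a2 (chr8:11312805-11449287, plus strand) make the common type IV trimer and lie head to head, with annotated starts that overlap, so unstranded reads there cannot be assigned to either. Col4a1 stood at 229.8 FPKM in Mbd3f/- MEFs, 30.2, 18.2, 9.95, 7.58, 1.73, 1.43, 2.198 and 2.26 on days 1 to 8, 6.89 in iPSCs and 2.64 in ES cells. In Gatad2a-/- it was at 183 FPKM in MEFs, 42.4, 41.1, 24.3, 7.25, 3.24, 2.11, 2.82 and 6.54 on days 1 to 8 and 1.92 in iPSCs. WT-1 gave 46.2 FPKM in MEFs, 43.4, 52.2, 85.9 and 68.4 on days 2, 4, 6 and 8, 1.91 in iPSCs and 8.85 in ES cells, and WT-2 45.2 FPKM in MEFs, 40.9, 31.3, 28.1 and 27.7 on days 2, 4, 6 and 8 and 1.94 in iPSCs. The depleted MEFs were higher than the WT MEFs, and the depleted libraries of day 4 and later were below every WT library of days 2 to 8.

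Col4a2 moved with it. The Mbd3f/- course gave 183 FPKM in MEFs, 24.8, 13.6, 7.19, 5.06, 0.901, 0.672, 1.17 and 1.21 on days 1 to 8, 3.75 in iPSCs and 1.32 in ES cells, the Gatad2a-/- course 167 FPKM in MEFs, 43.5, 46.0, 29.2, 5.68, 1.52, 2.14, 2.81 and 6.09 on days 1 to 8 and 1.05 in iPSCs. WT-1 had 35.9 FPKM in MEFs, 40.1, 37.1, 80.5 and 66.4 on days 2, 4, 6 and 8, 1.14 in iPSCs and 4.68 in ES cells, and WT-2 43.9 FPKM in MEFs, 40.0, 35.1, 28.2 and 32.4 on days 2, 4, 6 and 8 and 0.932 in iPSCs. Its day 8 change in the depleted systems was -5.47 ± 0.60 (SE, n = 2; limma, adjusted p = 2.5e-05), against -5.38 ± 0.52 for Col4a1 (limma, adjusted p = 1.0e-05). The ratio of Col4a1 to Col4a2 stayed between 0.83 and 2.13 over the 34 course libraries. Col4a5 and Col4a6, neighbours on the X chromosome, fell from 37.4 and 5.07 FPKM in Mbd3f/- MEFs to 4.27 and 0.548 on day 1. Col4a5 was the more abundant of the pair. Mbd3f/- cells held 37.4 FPKM in MEFs, 4.27, 2.46, 1.34, 1.15, 0.367, 0.273, 0.479 and 0.334 on days 1 to 8, 1.21 in iPSCs and 0.252 in ES cells. Levels in Gatad2a-/- were 22.5 FPKM in MEFs, 5.30, 5.59, 2.11, 0.694, 0.279, 0.314, 0.474 and 0.334 on days 1 to 8 and 0.111 in iPSCs. WT-1 showed 30.5 FPKM in MEFs, 32.9, 20.6, 19.2 and 15.1 on days 2, 4, 6 and 8, 0.219 in iPSCs and 0.128 in ES cells, and WT-2 11.4 FPKM in MEFs, 11.8, 15.5, 14.4 and 14.2 on days 2, 4, 6 and 8 and 0.140 in iPSCs. On day 8 both WT libraries lay above both depleted ones.

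Among the FACIT genes, Col12a1 (chr9:79598991-79718831), which coats fibrils in tendon and skin, had 412 FPKM in Mbd3f/- MEFs, 13.8, 2.13, 1.95, 1.06, 0.450, 0.540, 0.693 and 0.771 on days 1 to 8, 0.612 in iPSCs and 1.13 in ES cells. Gatad2a-/- gave 257 FPKM in MEFs, 21.6, 11.4, 4.78, 2.34, 1.38, 1.42, 4.00 and 2.78 on days 1 to 8 and 1.19 in iPSCs. It fell by 4.16 ± 0.47 at day 1, the largest change of the 34 tested members (limma, adjusted p = 1.8e-04). WT-1 had 112 FPKM in MEFs, 116, 30.5, 88.0 and 110.4 on days 2, 4, 6 and 8, 1.21 in iPSCs and 0.404 in ES cells, with a dip on day 4, and WT-2 209 FPKM in MEFs, 232, 188, 122 and 119.7 on days 2, 4, 6 and 8 and 0.675 in iPSCs.

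Col14a1 (chr15:55307750-55520803), another fibril-surface collagen, moved in opposite directions in depleted and WT cells. It went from 22.04 FPKM in Mbd3f/- MEFs, 1.01, 0.357, 0.664, 0.322, 0.0763, 0.0543, 0.118 and 0.237 on days 1 to 8, 0.307 in iPSCs and 0.105 in ES cells, and in Gatad2a-/- from 25.8 FPKM in MEFs, 3.17, 1.71, 0.389, 0.318, 0.174, 0.397, 0.463 and 0.450 on days 1 to 8 and 0.199 in iPSCs. In WT-1 it was at 3.20 FPKM in MEFs, 6.31, 7.38, 23.1 and 43.6 on days 2, 4, 6 and 8, 0.273 in iPSCs and 0.0389 in ES cells, and in WT-2 at 15.3 FPKM in MEFs, 14.3, 11.2, 37.3 and 63.3 on days 2, 4, 6 and 8 and 0.124 in iPSCs. Both WT systems were highest on day 8 and rose by 2.70 ± 0.40 from MEF (SE, n = 2; limma, adjusted p = 0.012), the single member higher there, against 0.439% of all genes. Col16a1, a further fibril-associated gene, followed the common order. Col16a1 measured 60.2 FPKM in MEFs, 9.55, 3.14, 1.01, 1.07, 0.361, 0.356, 0.193 and 0.882 on days 1 to 8, 0.892 in iPSCs and 0.514 in ES cells for Mbd3f/-, and 41.1 FPKM in MEFs, 8.79, 6.08, 1.76, 0.625, 0.784, 0.437, 0.429 and 0.461 on days 1 to 8 and 0.385 in iPSCs for Gatad2a-/-. The WT-1 values were 29.4 FPKM in MEFs, 43.5, 27.9, 38.9 and 50.7 on days 2, 4, 6 and 8, 0.484 in iPSCs and 0.367 in ES cells, and those of WT-2 85.2 FPKM in MEFs, 81.3, 125, 97.5 and 107 on days 2, 4, 6 and 8 and 0.582 in iPSCs. It kept 15.9% of MEF on day 1 in Mbd3f/- and 21.4% in Gatad2a-/-, and 173% and 125% on day 8 in WT-1 and WT-2.

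Some cartilage collagens were low by day 8 in WT cells as well. Col2a1 (chr15:97975602-98004695), the type II chain of cartilage fibrils, was at 68.1 FPKM in WT-1 MEFs, 63.8, 5.33, 5.14 and 6.22 on days 2, 4, 6 and 8, 0.580 in iPSCs and 0.600 in ES cells, and in WT-2 at 39.3 FPKM in MEFs, 71.9, 32.5, 3.03 and 2.58 on days 2, 4, 6 and 8 and 0.288 in iPSCs. It fell by 3.38 ± 0.67 from MEF to day 8 in WT (SE, n = 2; limma, adjusted p = 0.034), the single member lower there, against 0.719% of all genes, and the count of 2 members called on day 8 in WT was 0 without Mbd3f/- and 0 without Gatad2a-/-, 3 without WT-1 and 2 without WT-2. In Mbd3f/- it was at 36.6 FPKM in MEFs and 5.10 on day 1, and in Gatad2a-/- at 62.6 and 6.14. The depleted and WT changes at day 8 differed by -1.25 ± 0.95, which did not pass (limma, adjusted p = 0.4).

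The type IX chains, which decorate cartilage fibrils, were lower in WT-2 from day 4: Col9a1 was at 8.71, 7.51, 2.38, 0.414 and 0.105 FPKM from MEF to day 8, Col9a2 at 21.1, 18.4, 8.85, 0.632 and 1.34 and Col9a3 at 6.28, 5.01, 2.14, 0.609 and 0.713. Markers of chondrocytes moved with these genes: 7 of the 8 listed were found, and their summed FPKM was 248, 255, 176, 63.0 and 85.7 in WT-2 and 59.9, 59.7, 4.20, 7.89 and 8.03 in WT-1. Comp made up most of it in WT-2 and Lect1 in WT-1, and Acan was at or below 1.28 FPKM in each of these 10 libraries. Their part in the result was not tested.

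**Figure D3:**
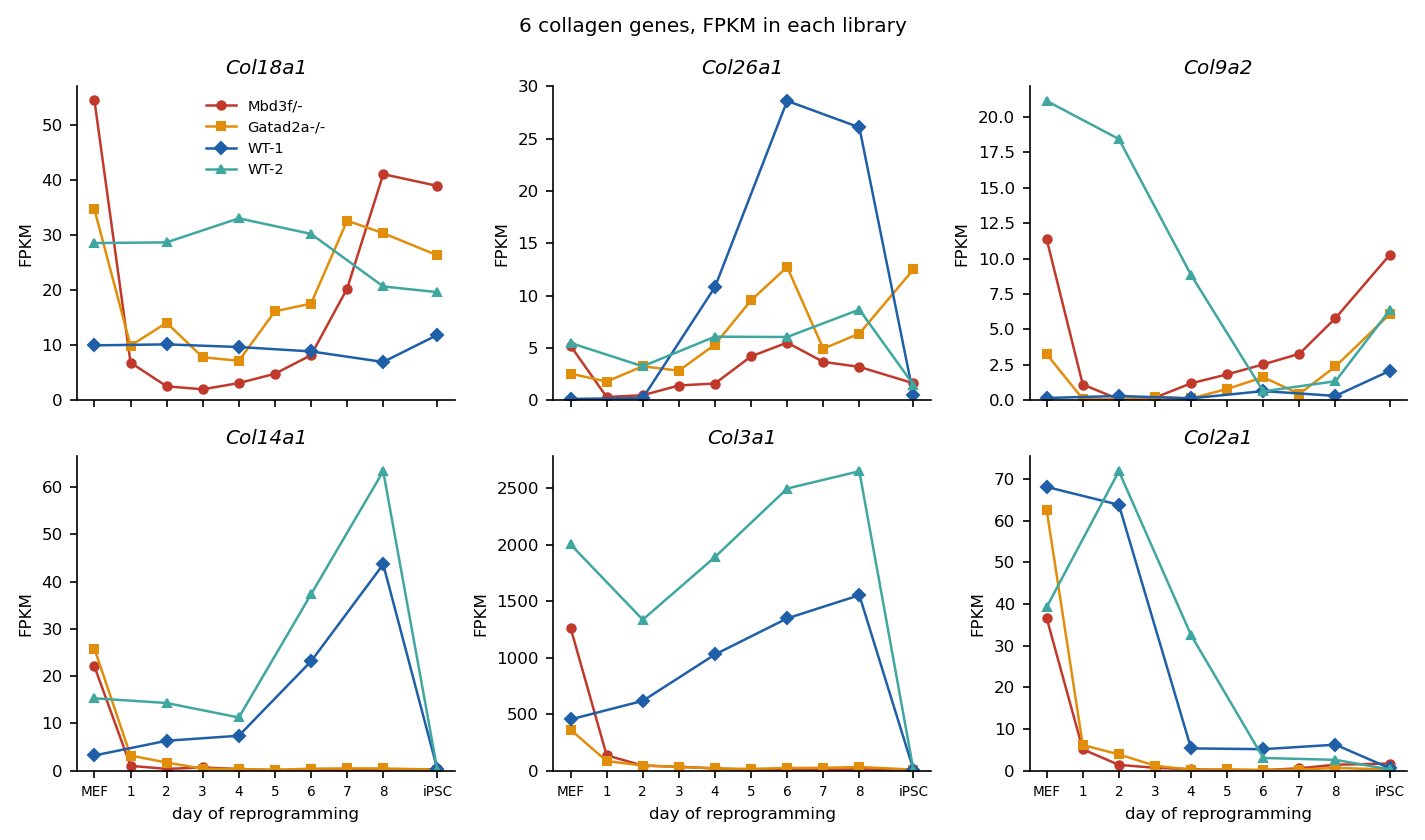
FPKM (linear axes from 0) of 6 collagen genes by day of reprogramming and in iPSCs; each point is 1 library and each line a system. Col18a1 dips and returns in the depleted systems, Col14a1 and Col3a1 are highest on day 8 in WT-1 and WT-2, and Col2a1 is low by day 6 in the 4 systems.

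Col6a1 (chr10:76708792-76726168), Col6a2 (chr10:76595762-76623630) and Col6a3 encode the chains of the type VI microfibril that lies close to cells. Col6a1 had 329 FPKM in Mbd3f/- MEFs, 68.4, 27.4, 10.95, 5.07, 1.25, 1.29, 1.24 and 1.16 on days 1 to 8, 0.198 in iPSCs and 1.29 in ES cells. The Gatad2a-/- levels were 139 FPKM in MEFs, 56.4, 46.9, 10.8, 2.98, 2.26, 2.05, 2.43 and 3.31 on days 1 to 8 and 0.722 in iPSCs. WT-1 gave 174 FPKM in MEFs, 199.7, 285, 226 and 213 on days 2, 4, 6 and 8, 1.56 in iPSCs and 0.763 in ES cells, and WT-2 517 FPKM in MEFs, 507, 561, 330.1 and 308 on days 2, 4, 6 and 8 and 0.938 in iPSCs. Relative to MEF, Gatad2a-/- cells held more of it than Mbd3f/- cells on each of days 1 to 8, with 40.6% against 20.8% on day 1, 7.74% against 3.33% on day 3 and 2.38% against 0.353% on day 8. Col6a3, the long chain of the trimer, was highest on day 4 in both WT systems. Among Mbd3f/- libraries Col6a3 was at 119 FPKM in MEFs, 30.6, 4.90, 2.62, 1.47, 0.682, 0.704, 0.747 and 0.933 on days 1 to 8, 0.160 in iPSCs and 1.41 in ES cells. Among Gatad2a-/- libraries it was at 79.8 FPKM in MEFs, 29.9, 15.1, 7.65, 2.39, 2.17, 3.33, 2.34 and 2.88 on days 1 to 8 and 1.30 in iPSCs. The WT-1 course had 62.3 FPKM in MEFs, 63.8, 133, 96.1 and 120.0 on days 2, 4, 6 and 8, 2.32 in iPSCs and 0.624 in ES cells, and the WT-2 course 92.1 FPKM in MEFs, 93.4, 203, 101 and 63.6 on days 2, 4, 6 and 8 and 0.672 in iPSCs. Values of Col6a2 complete the trio. The Mbd3f/- course gave 223 FPKM in MEFs, 33.5, 14.3, 8.25, 4.13, 1.10, 1.08, 0.996 and 1.07 on days 1 to 8, 0.125 in iPSCs and 0.793 in ES cells, the Gatad2a-/- course 76.4 FPKM in MEFs, 29.4, 27.0, 34.0, 14.0, 9.42, 9.27, 6.002 and 7.73 on days 1 to 8 and 8.85 in iPSCs. WT-1 had 73.7 FPKM in MEFs, 84.7, 171, 149.6 and 128 on days 2, 4, 6 and 8, 0.875 in iPSCs and 0.562 in ES cells, and WT-2 322 FPKM in MEFs, 372, 490.4, 260.3 and 234 on days 2, 4, 6 and 8 and 0.657 in iPSCs. Each depleted library from day 1 on was below every WT library of days 2 to 8 for Col6a3.

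Chains of 1 trimer did not always keep their ratio. In Gatad2a-/- the ratio of Col1a1 to Col1a2 was 1.39, 1.27 and 1.11 in MEFs and on days 1 and 2, and 0.51 on day 3, 1.46 on day 8 and 0.44 in iPSCs. That of Col6a1 to Col6a2 was 1.82, 1.92 and 1.74, then 0.32 on day 3, between 0.21 and 0.43 on days 4 to 8, and 0.08 in iPSCs. The level of Col6a2 there was 27.0 FPKM on day 2, 34.0 on day 3 and 8.85 in iPSCs. In Mbd3f/-, WT-1 and WT-2 the Col6a1 to Col6a2 ratio stayed between 1.09 and 2.36 in every library. Day 3 is the first day on human feeder cells per the labels, and the part of feeder RNA in these values was not tested.

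**Figure D4:**
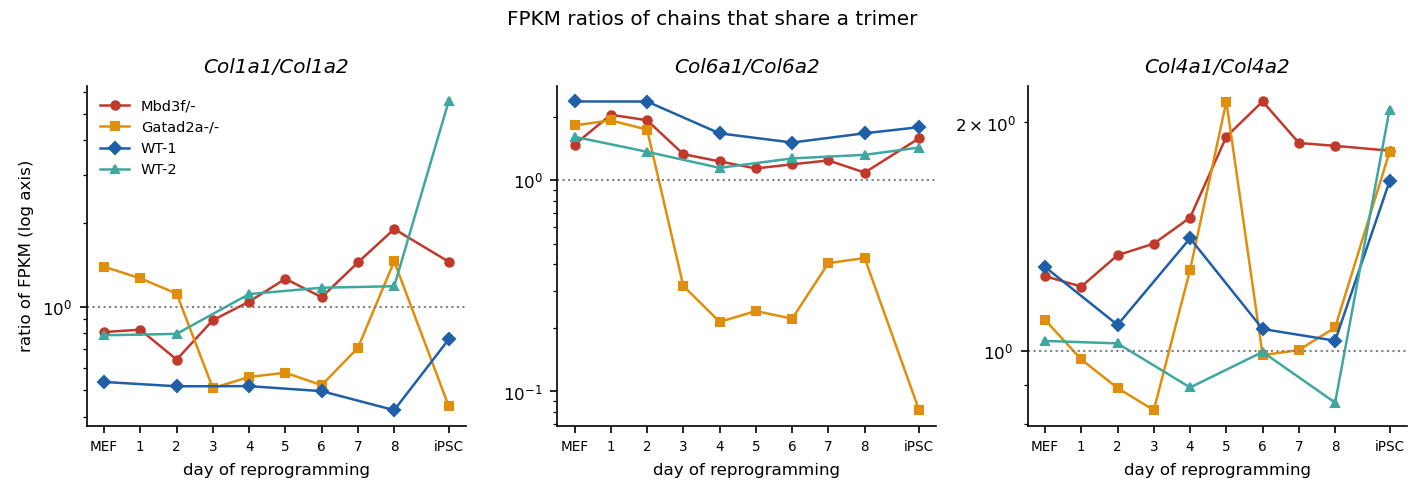
Ratio of the FPKM of chains that share a trimer (log axes) by day of reprogramming and in iPSCs; each point is 1 library, and the dotted line marks a ratio of 1. The Gatad2a-/- line drops between days 2 and 3 for Col1a1/Col1a2 (1.11 to 0.51) and Col6a1/Col6a2 (1.74 to 0.32). For Col4a1/Col4a2 it changes little between these days (0.89 to 0.83) and falls from 2.13 on day 5 to 0.99 on day 6.

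Of the network collagens, Col8a1 (chr16:57624258-57754737), a short chain of vessel wall and cornea, went from 168 FPKM in Mbd3f/- MEFs, 19.0, 4.20, 1.79, 0.737, 0.203, 0.137, 0.144 and 0.188 on days 1 to 8, 2.01 in iPSCs and 0.305 in ES cells. Gatad2a-/- cells had 130.1 FPKM in MEFs, 33.1, 11.5, 2.87, 0.642, 0.532, 0.468, 0.881 and 0.776 on days 1 to 8 and 0.536 in iPSCs. WT-1 was at 45.7 FPKM in MEFs, 38.1, 16.2, 30.5 and 44.6 on days 2, 4, 6 and 8, 0.254 in iPSCs and 0.161 in ES cells, and WT-2 at 47.6 FPKM in MEFs, 41.8, 35.9, 46.3 and 39.0 on days 2, 4, 6 and 8 and 0.213 in iPSCs. On day 8 both depleted libraries were below 1 FPKM. Its partner Col8a2 was at higher levels in Mbd3f/- and WT-2 MEFs than in the others. Mbd3f/- cells held 56.9 FPKM in MEFs, 0.259, 0.0484, 0.0355, 0.0521, 0.0257, 0.0188, 0.0207 and 0.0746 on days 1 to 8, 0.0228 in iPSCs and 0.218 in ES cells. Levels in Gatad2a-/- were 6.85 FPKM in MEFs, 0.338, 0.415, 0.112, 0.0213, 0.107, 0.0383, 0.0270 and 0.0518 on days 1 to 8 and 0.484 in iPSCs. WT-1 showed 6.81 FPKM in MEFs, 16.3, 0.255, 8.69 and 6.99 on days 2, 4, 6 and 8, 0.0852 in iPSCs and 0.0441 in ES cells, and WT-2 54.3 FPKM in MEFs, 52.4, 42.9, 25.5 and 25.6 on days 2, 4, 6 and 8 and 0.0361 in iPSCs. It kept 0.456% of MEF on day 1 in Mbd3f/- (56.9 to 0.259 FPKM), the lowest share of any member in that system. Col10a1, of growth plate cartilage, was above 5 FPKM in the MEFs of both depleted systems and at or below 50% of that from day 1. Col10a1 measured 7.95 FPKM in MEFs, 0.615, 0.0748, 0.04999, 0.0293, 0.0144, 0.0616, 0.0146 and 0.0262 on days 1 to 8, 0.0898 in iPSCs and 0.0150 in ES cells for Mbd3f/-, and 5.84 FPKM in MEFs, 1.04, 0.368, 0.0487, 0.0150, 0.0599, 0.0269, 0.0190 and 0.0435 on days 1 to 8 and 0.0152 in iPSCs for Gatad2a-/-. The WT-1 values were 1.59 FPKM in MEFs, 3.73, 0.128, 1.32 and 2.43 on days 2, 4, 6 and 8, 0.0320 in iPSCs and 0.0207 in ES cells, and those of WT-2 2.88 FPKM in MEFs, 6.48, 2.22, 1.32 and 0.971 on days 2, 4, 6 and 8 and 0.0255 in iPSCs.

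Col18a1 (chr10:77052178-77166548), a multiplexin of basement membranes whose end fragment is endostatin, was lost and regained. It stood at 54.5 FPKM in Mbd3f/- MEFs, 6.84, 2.54, 2.00, 3.13, 4.82, 8.198, 20.3 and 41.1 on days 1 to 8, 38.9 in iPSCs and 18.7 in ES cells. In Gatad2a-/- it was at 34.7 FPKM in MEFs, 9.92, 14.1, 7.81, 7.18, 16.2, 17.6, 32.6 and 30.4 on days 1 to 8 and 26.3 in iPSCs. WT-1 had 9.98 FPKM in MEFs, 10.2, 9.68, 8.88 and 6.96 on days 2, 4, 6 and 8, 11.9 in iPSCs and 19.8 in ES cells, and WT-2 28.6 FPKM in MEFs, 28.7, 33.1, 30.2 and 20.7 on days 2, 4, 6 and 8 and 19.6 in iPSCs, with no such trough. In the depleted systems it was lower than MEF at day 1 (-2.27 ± 0.61, SE, n = 2; limma, adjusted p = 0.019), and the day 8 difference of -0.29 ± 0.61 did not pass (limma, adjusted p = 0.74). The share of multiplexins in the summed collagen FPKM went from 0.971% in MEFs to 38.7% in iPSCs of Mbd3f/-, from 0.766% to 12.7% in Gatad2a-/-, from 0.307% to 23.4% in WT-1 and from 0.494% to 34.2% in WT-2. Their own summed FPKM was not higher in iPSCs than in MEFs except in WT-1: it went from 92.2 to 39.2, from 38.5 to 26.7, from 10.7 to 12.1 and from 36.5 to 19.8 in the same order.

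Col15a1, the other multiplexin, had no such return. Among Mbd3f/- libraries Col15a1 was at 37.8 FPKM in MEFs, 4.31, 1.76, 0.871, 0.591, 0.685, 0.986, 0.210 and 0.295 on days 1 to 8, 0.267 in iPSCs and 0.252 in ES cells. Among Gatad2a-/- libraries it was at 3.84 FPKM in MEFs, 1.96, 2.37, 1.48, 0.280, 1.2, 0.302, 0.575 and 0.595 on days 1 to 8 and 0.338 in iPSCs. The WT-1 course had 0.734 FPKM in MEFs, 1.70, 46.1, 51.1 and 52.3 on days 2, 4, 6 and 8, 0.220 in iPSCs and 0.0744 in ES cells, and the WT-2 course 7.90 FPKM in MEFs, 4.62, 6.58, 6.05 and 5.78 on days 2, 4, 6 and 8 and 0.143 in iPSCs. It was thus higher from day 4 on in WT-1 than in its MEFs, and not in WT-2.

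Col9a2 (chr4:121039385-121055322) also returned in pluripotent cells. Mbd3f/- cells had 11.4 FPKM in MEFs, 1.11, 0.0704, 0.185, 1.2, 1.83, 2.54, 3.28 and 5.80 on days 1 to 8, 10.3 in iPSCs and 2.56 in ES cells. Gatad2a-/- cells had 3.25 FPKM in MEFs, 0.0965, 0.0682, 0.236, 0.127, 0.802, 1.63, 0.448 and 2.39 on days 1 to 8 and 6.07 in iPSCs. In iPSCs it reached 2.08 FPKM in WT-1 and 6.35 in WT-2, and 7.74 in WT-1 ES cells. Its partner Col9a3 was also higher in iPSCs than in mid-course in the depleted systems, from 0.187 FPKM on day 4 to 2.01 in iPSCs of Mbd3f/- (MEF 5.58) and from 0.211 on day 5 to 2.79 in Gatad2a-/- (MEF 3.52). Col9a1, the further partner, was at most 0.0329 FPKM in the 4 iPSC lines. For Col9a2 the mean change from MEF to iPSC of 0.10 ± 0.58 did not pass (limma, adjusted p = 0.91), with MEF levels from 0.162 to 21.1 FPKM.

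Col26a1 (chr5:136741759-136883209), a member outside the large classes, had 5.20 FPKM in Mbd3f/- MEFs, 0.313, 0.484, 1.41, 1.60, 4.20, 5.51, 3.67 and 3.19 on days 1 to 8, 1.62 in iPSCs and 2.14 in ES cells. Gatad2a-/- gave 2.54 FPKM in MEFs, 1.79, 3.25, 2.82, 5.33, 9.55, 12.7, 4.93 and 6.37 on days 1 to 8 and 12.5 in iPSCs. It was at 0.133 FPKM in WT-1 MEFs, 0.205, 10.8, 28.6 and 26.1 on days 2, 4, 6 and 8, 0.469 in iPSCs and 2.52 in ES cells, and at 5.48 FPKM in WT-2 MEFs, 3.25, 6.08, 6.05 and 8.67 on days 2, 4, 6 and 8 and 1.48 in iPSCs. WT-1 held more of it than WT-2 from day 4 to day 8, and less in MEFs, and the mean WT change at day 8 of 2.58 ± 0.95 did not pass (limma, adjusted p = 0.21). Col6a5, a further type VI chain, was named after its values were seen: it was at 3.24, 10.1 and 5.999 FPKM on days 6 to 8 in Mbd3f/- and at most 0.565 in Gatad2a-/-.

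Col7a1, of the fibrils that anchor epidermis to dermis, was present in 3 of the 4 kinds of MEF. The Mbd3f/- course gave 7.45 FPKM in MEFs, 2.30, 0.463, 0.442, 0.101, 0.523, 0.266, 0.538 and 0.526 on days 1 to 8, 0.884 in iPSCs and 0.414 in ES cells, the Gatad2a-/- course 29.7 FPKM in MEFs, 2.28, 0.921, 0.530, 1.22, 0.641, 0.782, 0.419 and 0.749 on days 1 to 8 and 0.445 in iPSCs. WT-1 had 14.0 FPKM in MEFs, 7.53, 2.42, 1.04 and 0.920 on days 2, 4, 6 and 8, 0.356 in iPSCs and 0.229 in ES cells, and WT-2 0.642 FPKM in MEFs, 1.63, 2.42, 0.740 and 0.663 on days 2, 4, 6 and 8 and 0.0581 in iPSCs. It was low in iPSCs of the 4 systems. Col28a1, known from nerve sheaths, differed between MEFs. Mbd3f/- cells held 1.32 FPKM in MEFs, 0.537, 0.0645, 0.0312, 0, 0.0158, 0.0128, 0.0159 and 0.00637 on days 1 to 8, 0.0467 in iPSCs and 0.0218 in ES cells. Levels in Gatad2a-/- were 0.916 FPKM in MEFs, 0.272, 0.0929, 0.0237, 0.0328, 0.541, 0.0197, 0.0139 and 0.0212 on days 1 to 8 and 0 in iPSCs. WT-1 showed 0.179 FPKM in MEFs, 0.414, 0.634, 1.29 and 1.58 on days 2, 4, 6 and 8, 0 in iPSCs and 0.00754 in ES cells, and WT-2 5.10 FPKM in MEFs, 7.04, 1.57, 2.02 and 3.70 on days 2, 4, 6 and 8 and 0 in iPSCs.

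Transmembrane collagens were below 2 FPKM in the 4 kinds of MEF. Col17a1 serves epithelial attachment. Col17a1 measured 0.121 FPKM in MEFs, 0.0892, 0.264, 0.631, 0.808, 0.796, 1.11, 1.92 and 1.65 on days 1 to 8, 0.421 in iPSCs and 0.172 in ES cells for Mbd3f/-, and 0.551 FPKM in MEFs, 0.0647, 0.430, 1.17, 0.379, 1.08, 1.16, 0.954 and 1.11 on days 1 to 8 and 1.96 in iPSCs for Gatad2a-/-. The WT-1 values were 0.204 FPKM in MEFs, 0.169, 0.130, 0.224 and 0.283 on days 2, 4, 6 and 8, 0.299 in iPSCs and 1.37 in ES cells, and those of WT-2 0.0974 FPKM in MEFs, 0.0441, 0.0145, 0.0613 and 0.260 on days 2, 4, 6 and 8 and 0.628 in iPSCs. It was above 1 FPKM mainly late in the depleted courses. Among the course libraries Col23a1 was highest in WT. Among Mbd3f/- libraries Col23a1 was at 0.949 FPKM in MEFs, 0.390, 0.231, 0.316, 0.150, 0.0549, 0.0474, 0.0590 and 0.0726 on days 1 to 8, 0.142 in iPSCs and 0.123 in ES cells. Among Gatad2a-/- libraries it was at 0.416 FPKM in MEFs, 0.320, 0.391, 0.226, 0.236, 0.0582, 0.0582, 0.293 and 0.118 on days 1 to 8 and 0.0164 in iPSCs. The WT-1 course had 0.0969 FPKM in MEFs, 0.601, 1.11, 1.37 and 2.66 on days 2, 4, 6 and 8, 0.0690 in iPSCs and 0.150 in ES cells, and the WT-2 course 1.98 FPKM in MEFs, 2.49, 2.02, 1.94 and 1.70 on days 2, 4, 6 and 8 and 0.224 in iPSCs. Col25a1 reached 1 FPKM in few libraries. The Mbd3f/- course gave 1.17 FPKM in MEFs, 0.434, 0.0796, 0.0859, 0.104, 0.0294, 0.0279, 0.00330 and 0 on days 1 to 8, 0.0208 in iPSCs and 0.00339 in ES cells, the Gatad2a-/- course 0.438 FPKM in MEFs, 0.912, 1.08, 1.21, 0.513, 0.194, 0.162, 0.0829 and 0.0790 on days 1 to 8 and 0.0249 in iPSCs. WT-1 had 0.0148 FPKM in MEFs, 0.00913, 0.162, 0.118 and 0.0317 on days 2, 4, 6 and 8, 0.00362 in iPSCs and 0.0187 in ES cells, and WT-2 0.378 FPKM in MEFs, 0.288, 0.0590, 0.0663 and 0.0692 on days 2, 4, 6 and 8 and 0 in iPSCs. The remaining members reached at most 12.9 FPKM for Col24a1, 9.42 for Col27a1, 3.72 for Col11a2, 2.88 for Col6a6, 1.47 for Col22a1, 1.51 for Col20a1 and 1.04 for Col13a1 in the course libraries.

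Whether the change since MEF differed between depleted and WT cells was tested as an interaction within the 24 libraries of the shared stages. On days 2, 4, 6 and 8, respectively, 13, 20, 22 and 22 of 39 members had fallen further in depleted cells, and 0 had fallen less (limma, adjusted p under 0.05). Of all genes 1.87%, 5.34%, 7.69% and 7.73% differed that way, and 0.557%, 1.12%, 4.46% and 8.4% the other way. On day 8 these were 9 of 11 fibrillar, 4 of 4 basement membrane, 3 of 8 FACIT and 3 of 5 beaded filament members, with median differences of -5.44, -4.73, -0.84 and -5.12 in log2(FPKM + 1), against 0.23 over all genes. FACIT differences ran from -6.91 to 0.94. The class includes members low in MEFs, such as Col20a1 and Col22a1 (at most 1.47 FPKM), which can fall little on this scale. Its median thus does not describe its abundant members. The day 2 count was 1 without Mbd3f/-, 1 without WT-1 and 3 without WT-2, the day 4 count was 12 without WT-2, and the day 6 count was 14 without Mbd3f/-. On day 8 it was between 15 and 21 without each system in turn.

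The 5 members with the largest day 8 difference were Col1a2 (-7.05 ± 1.49, adjusted p = 0.0073), Col14a1 (-6.91 ± 0.56, 2.4e-05), Col12a1 (-6.57 ± 0.86, 3.6e-04), Col1a1 (-6.57 ± 0.98, 8.7e-04) and Col8a1 (-6.52 ± 0.61, 4.4e-05; SE, n = 2 systems against 2; limma). For each of the 5, both depleted systems were lower on day 8 than in MEFs, and their FPKM lay below those of both WT systems. The 5 were picked by this difference, so that order was close to set in advance and only describes them. The interaction did not pass for Col2a1, Col9a1, Col9a2, Col9a3, Col18a1 or Col26a1. On day 8 the summed FPKM of fibroblast markers was 21.0 in Mbd3f/-, 33.5 in Gatad2a-/-, 1220.2 in WT-1 and 3109 in WT-2. This sum had fallen less than that of the collagens on day 1. Abundant genes weigh most in such a sum, and the change of each marker is not given here. Mbd3f/- cells still had 794 of 916 and Gatad2a-/- cells 515 of 1052, while summed collagen FPKM was 847 of 9498 and 948 of 5027. Markers of smooth muscle (5 genes) were at 4100.4 and 394 in Mbd3f/- MEFs and on day 1, and at 4988 and 702 in Gatad2a-/-. Macrophage markers (6 genes) summed to 3872 in WT-2 MEFs, 8023 on day 6 and 4743 on day 8, and to 8.54 and 12.1 in WT-1. Their part in these results was not tested.

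**Figure D5:**
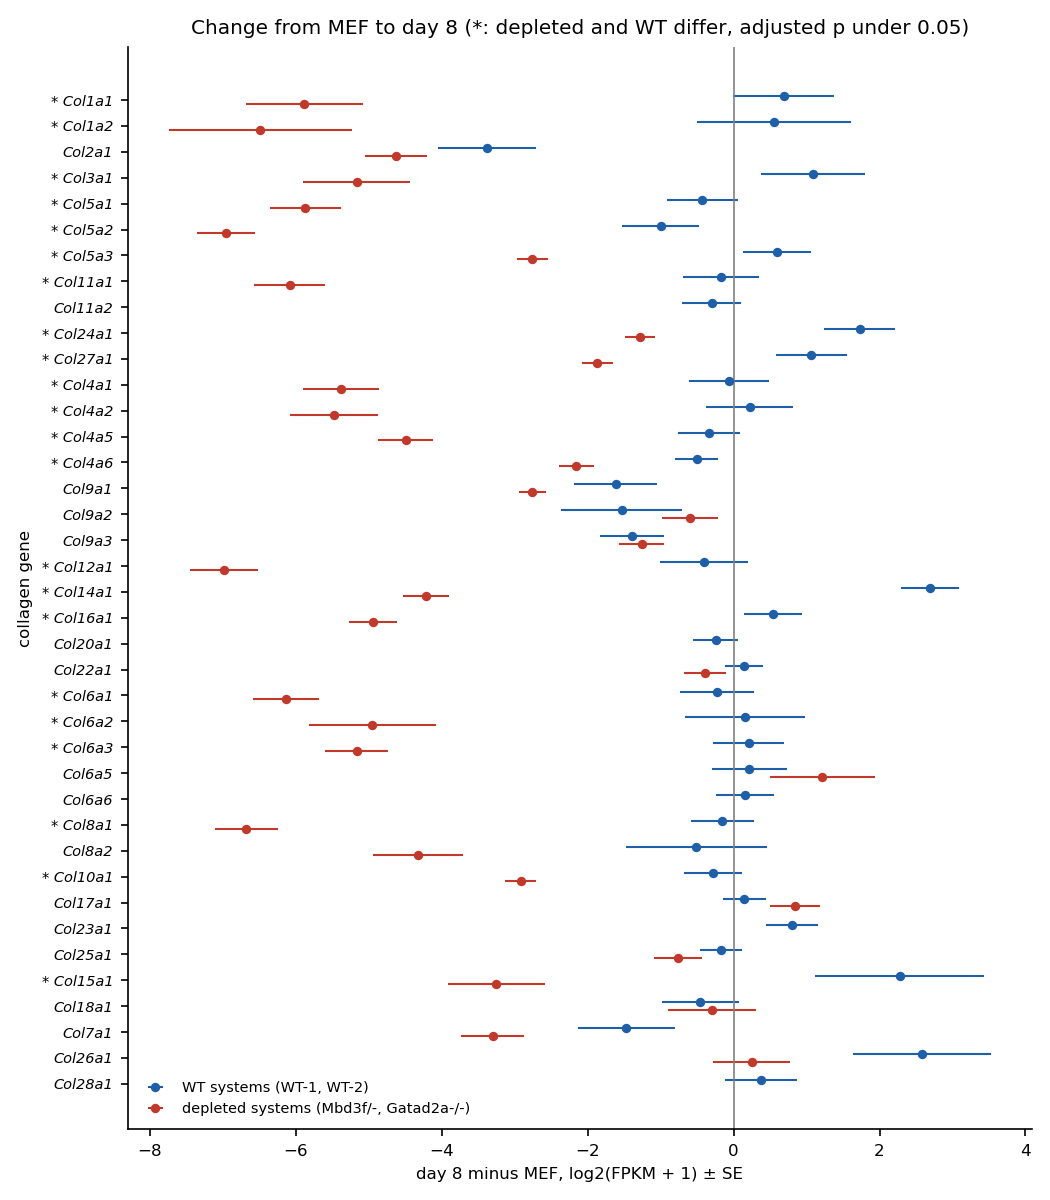
Change from MEF to day 8 in log2(FPKM + 1), with its SE, for the 39 members tested: blue points are the mean of WT-1 and WT-2 from the fit of 24 libraries, red points the mean of Mbd3f/- and Gatad2a-/- from the fit of 20 libraries (absent for members that did not pass its filter). Asterisks mark members whose change differed between depleted and WT cells; most red points lie left of -2 and most blue points near 0.

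In WT most collagens were lower in the iPSC lines than in the day 8 cultures. The lines are not a later day of these bulk cultures, so the time of loss in the cells that gave rise to them is not known. From day 8 to iPSC, 26 of 39 members fell in WT and 0 rose (limma, adjusted p under 0.05), against 15.7% of all genes lower, among them Col1a2 (-8.72 ± 1.06, adjusted p = 5.3e-05) and Col1a1 (-7.39 ± 0.69, adjusted p = 7.0e-06). In depleted cells 0 members passed between day 8 and iPSC, against 0.32% of all genes lower and 0.241% higher, and 1 had an unadjusted p under 0.05. The 0 called in the difference between depleted and WT in the change from MEF to iPSC (3 at an unadjusted p under 0.05, 0.143% of all genes lower and 0.168% higher), and the 0 called between ES cells and iPSCs among 40 tested (0 at an unadjusted p under 0.05, 0.0% of all genes), do not show that the levels were alike. In WT on days 2, 4 and 6, 0 members were called by limma, and 1, 4 and 7 had an unadjusted p under 0.05. Of all genes 0.0%, 0.00493% and 0.069% were lower and 0.0%, 0.00493% and 0.0887% higher on these days. On day 6 the count was 2 without WT-1 and 1 without WT-2.

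The machinery that makes and handles collagen was followed in lists of its genes. Of 19 tested genes for folding and modification, 18 fell from MEF to iPSC and 0 rose (limma, adjusted p under 0.05), with a median change of -2.58. Of all genes 23.9% were lower and 29.0% higher, with a median of 0.14. They included Serpinh1, the collagen chaperone (-3.47 ± 0.26, limma, adjusted p = 3.0e-07), P4ha2, a prolyl hydroxylase subunit (-4.20 ± 0.37, limma, adjusted p = 9.9e-07) and Fkbp10, a prolyl isomerase (-3.77 ± 0.20, limma, adjusted p = 1.8e-08). Of the general export genes 4 of 5 fell, with a median of -0.95, and Sec24d of the COPII coat changed most (-2.86 ± 0.30, limma, adjusted p = 4.9e-06). Propeptide processing had 6 of 7 lower, among them the procollagen C-proteinase Bmp1 (-4.50 ± 0.38, limma, adjusted p = 7.5e-07), and Pcolce2, an enhancer of that enzyme, was higher (2.60 ± 0.79, limma, adjusted p = 0.014). Of the breakdown genes 8 of 12 fell and 1 rose (Pepd, a peptidase for proline-containing dipeptides), and of the receptors 6 of 7 fell.

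On day 1 in the depleted systems, 10 of 19 folding, 3 of 5 export, 3 of 7 processing, 6 of 12 breakdown and 5 of 6 receptor genes were lower, and 0, 0, 1, 1 and 0 were higher (limma, adjusted p under 0.05), against 8.99% of all genes lower and 14.1% higher. The folding list had a median change of -1.19 at that time, and the collagen classes had medians from -2.94 (fibrillar) and -2.38 (basement membrane) through -1.71 (beaded filament) to -0.19 (transmembrane). These medians depend on MEF levels, since genes low in MEFs, as the transmembrane collagens were, can fall little on this scale. By day 8 the counts lower were 18, 4, 6, 9 and 6, and 1 processing gene was higher, against 16.2% and 21.2% of all genes. In WT on day 8, 0 of the 50 tested genes of these lists were lower and 1, Mmp3 of the breakdown list, was higher (limma, adjusted p under 0.05), against 0.719% and 0.439% of all genes. At an unadjusted p under 0.05 the counts were 9 lower and 6 higher. Among the 9 were the hydroxylase genes Plod1 (-1.87 ± 0.43, limma, adjusted p = 0.054), P4ha1 (-2.26 ± 0.54, limma, adjusted p = 0.062) and P4ha2 (-1.98 ± 0.52, limma, adjusted p = 0.088), named after their values were seen. The difference between depleted and WT on day 8 passed for 12 of 19, 2 of 5, 5 of 7, 8 of 12 and 5 of 7 genes, each lower in depleted cells, against 7.73% of all genes lower and 8.4% higher. Examples were Serpinh1 (-4.44 ± 0.53, limma, adjusted p = 1.7e-04) and the matrix metalloproteinase Mmp2 (-6.30 ± 0.66, limma, adjusted p = 8.3e-05).

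In the Myc table each condition is 1 library, apart from 2 si-Scramble MEF libraries, so differences have no replicate check. A difference of at least 1 in log2(FPKM + 1) is counted, over the 34 members at 1 FPKM or more in at least 2 of the 9 libraries; 0 of them differed by that much between the 2 MEF libraries. With control siRNA on day 7, 8 members were lower and 2 higher than in MEFs, against 5.41% and 7.22% of all genes. The 8 were Col2a1, the type IX chains Col9a1, Col9a2 and Col9a3, Col8a2, Col10a1, Col11a1 and Col15a1, named after their values were seen, and Col1a1, Col1a2 and Col3a1 were not among them. With siRNA against cMyc, lMyc and nMyc, 14 members were lower and 2 higher on day 3 (8.36% and 4.56% of all genes), and 18 lower and 1 higher on day 7 (8.89% and 9.76%). Set against si-Scramble of the same day 7, siMyc had 15 members lower and 1 higher (4.18% and 3.1% of all genes). These comparisons share control libraries.

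Col1a1 was at 1359 and 1572 FPKM in the 2 si-Scramble MEF libraries, 1274 with si-Scramble on day 7, 1063 and 486 with siMyc on days 3 and 7, and 1423 with the Myc inhibitor on day 3. Col3a1 was at 942 and 1066 FPKM in the 2 si-Scramble MEF libraries, 1834 with si-Scramble on day 7, 213 and 369 with siMyc on days 3 and 7, and 383 with the Myc inhibitor on day 3. Col6a2 was at 173 and 193 FPKM in the 2 si-Scramble MEF libraries, 145 with si-Scramble on day 7, 33.6 and 20.9 with siMyc on days 3 and 7, and 123 with the Myc inhibitor on day 3. For each of the 3, siMyc on day 7 lay below si-Scramble on day 7. Col8a1 was the single member higher with siMyc on day 7, at 75.1 against 33.9 FPKM. With the Myc inhibitor on day 3, 8 members were higher and 3 lower than in MEFs (10.1% and 10.3% of all genes), and the higher ones included Col2a1 (93.4 FPKM), Col9a2 (12.5) and Col11a1 (105). Chondrocyte markers were also higher there, with a summed FPKM of 45.7 against 10.3 and 9.37 in the MEF libraries, led by Acan and Sox9, and their part was not tested.

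In Mbd3f/- cells on day 4, overexpression of OSK together with cMyc left 10 members lower and 1 higher than OSK alone (15.7% and 11.1% of all genes), and 6 lower and 4 higher than cMyc alone (3.98% and 8.81%). Basement membrane and beaded filament genes were among those lower than with OSK alone: Col4a1 was at 30.9 FPKM with OSK and cMyc, 115 with OSK and 14.7 with cMyc, and Col6a2 at 10.5, 46.3 and 14.3. Col16a1 was the single member counted higher than with OSK alone, at 14.7, 6.80 and 43.6 FPKM in the same order. Col1a1 was at 79.5, 41.5 and 192 FPKM and its partner Col1a2 at 139, 276 and 128. The 2 type I chains thus went in opposite directions from OSK alone, and neither difference reached the limit counted. A matching MEF library of these cells was not used here, so the loss from fibroblasts is not given for them.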

How the data were processed

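Poly(A) RNA libraries were made with the TruSeq RNA v2 kit per the labels' protocols, which does not mark strand. TopHat2 2.0.10, Cufflinks 2.2.1 and CASAVA 1.8.2 were used on the build mm10, per the submitters' processing notes. The authors deposited 5 tables of FPKM per gene, used here as deposited. Each course has its own table. 19 identifiers listed more than once were left out. The 37 mitochondrial genes are listed at 0 in every library, so a listed 0 can be a failed estimate, and read counts were not recovered from the values. No interval or floor that needs depth is given.

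The members, lists and tests were chosen with earlier results of these data known. Changes were tested in log2(FPKM + 1) with limma 3.58.1 (R 4.3.3; empirical Bayes with trend and robust settings), on genes at 1 FPKM or more in at least 2 libraries of the fit, with the system as a block, and adjusted by the Benjamini-Hochberg method over all genes (threshold 0.05). The shared stages gave 24 libraries (20296 genes, 10 residual degrees of freedom), the days 1 to 8 of the depleted systems 20 libraries (20189 genes, 9) and the ES comparison 26 libraries (20401 genes, 10). Groups came from the labels. The fits were tested on simulated data. Named were the 3 members of each class highest in MEFs, members higher in iPSCs, the 5 with the largest day 8 difference, members that peaked on the way in 2 or more systems, members at 5 FPKM or more in an iPSC or ES library, and their trimer partners. Gene positions are from GENCODE vM21 (GRCm38). Alternatives were a pseudocount of 0.1, no filter, a scale of equal library sums, quantile normalization, no system block and each system left out.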

Additional observations from a re-analysis of the deposited data

Results flagged for a closer look

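The change since MEF differed between depleted and WT cells by the test of the difference itself (limma, adjusted p under 0.05) for 13, 20, 22 and 22 collagen genes on days 2, 4, 6 and 8. The 5 largest differences on day 8 in log2(FPKM + 1) were -7.05 for Col1a2, -6.91 for Col14a1, -6.57 for Col12a1, -6.57 for Col1a1 and -6.52 for Col8a1. No group holds the 4 to 10 samples that a search for an outlying library needs.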

How the results depend on the processing

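Of 221 comparisons of a member count or timing value with its alternative, 190 stayed within the limits set and 31 moved. Among 126 results for named members 72 passed the threshold. Of these, 25 lost it in at least 1 setting and 0 changed direction. A change of direction was not counted where a result passed neither in the main fit nor in the alternative. Without the system block, 3, 13, 13 and 14 members differed between depleted and WT on days 2, 4, 6 and 8 (13, 20, 22 and 22 with it) and 16 were called on day 1 in depleted cells (26 with it). On a scale of equal library sums the day 2 difference had 6, and the median of all genes moved from 0.14 to -0.45 on day 6 and from 0.26 to -0.15 on day 8 in depleted cells. The 2 members called on day 8 in WT became 0 with a pseudocount of 0.1, 1 without the filter, 0 without the block and 1 without the Gatad2a-/- libraries of days 6 to 8, an alternative chosen after seeing the data, under which 1 member passed between day 8 and iPSC in depleted cells (0 with them). The FACIT mean on day 1 was 12.6% when members at 1 FPKM or more in MEFs counted, beside 12.9% for fibrillar, so FACIT was no longer the lowest class in Mbd3f/-, and WT-2 then had 8 members at or below 50%. At a limit of 25%, WT-1 had 2. The cause was not tested.

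Leaving out each system in turn gave 0 to 2 members on day 6 and 0 to 3 on day 8 in WT, 1 to 18, 12 to 18 and 14 to 20 for the difference on days 2, 4 and 6, 0 to 1 from day 8 to iPSC in depleted cells, and 2 to 16, 6 to 22, 14 to 22, 17 to 22, 16 to 23 and 18 to 24 on days 1 to 6 in depleted cells. Such fits take the lone system's spread to be that of the others. By replicate number, no paired analysis was possible because only the si-Scramble MEF libraries carry such numbers. The stages of a system are paired through the system block. Depth is unknown and limits low members in particular.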
